A study of Mus musculus with 6 samples.

Results

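The nuclear subunit genes of respiratory complexes II, III and IV, with cytochrome c, were examined in brown fat of mice with and without Ucp1. Members were all genes of the deposited table whose symbol begins with Uqcr or with Cox4 to Cox8, together with Cyc1, Cycs and Sdha to Sdhd. These were 32 of the 29072 genes with an identifier in the table: 4 of complex II, 9 of complex III, 18 of complex IV and cytochrome c itself. RNA came from interscapular brown adipose tissue of C57BL/6J mice, 3 libraries with the genotype UCP1(-/-), called knockout here, and 3 wildtype libraries. No age, sex or treatment is given in the labels, and the knockout is of the whole animal as far as the labels say. The values were taken as RPKM, which relates reads to transcript length and to library size. Nothing in the labels states that each library is from a different animal, so p-values reflect only the variation among these libraries, which may be technical.

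Respiratory complexes II to IV carry electrons from succinate and ubiquinol to oxygen in the inner mitochondrial membrane. Complex II (succinate dehydrogenase) feeds ubiquinone, complex III passes the electrons to cytochrome c, and complex IV (cytochrome c oxidase) hands them to oxygen. Complexes III and IV pump protons, and in brown fat UCP1 lets those protons return to the matrix with release of heat. Complex III takes its cytochrome b, and complex IV its catalytic core, from mitochondrial DNA, while the genes described here are nuclear. Several complex IV subunits exist in a form found in most tissues and a form of heart and skeletal muscle, such as Cox6a1 and Cox6a2, Cox7a1 (muscle) and Cox7a2, and Cox8b (muscle) and Cox8a. Brown fat is known to share the muscle forms Cox7a1 and Cox8b.

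Ucp1 stood at 375, 389 and 372 RPKM in the knockout libraries and at 3096, 1714 and 3151 RPKM in the wildtype libraries, so the groups did not overlap. If the values are RPKM, the spacing of low values implies 15800000 to 18000000 reads per library. Among 20 skeletal muscle markers, all 20 were called higher in knockout brown fat; 15 of them averaged 1 RPKM or more in wildtype, and 5 passed that filter only through the knockout group, where they are high. Their summed level was 1832 to 2061 RPKM in knockout and 64.1 to 303 RPKM in wildtype libraries. No muscle marker was at 0 in any library. In bulk tissue a different share of cells of a type and a different amount of RNA per cell cannot be told apart. All 12 brown adipocyte markers averaged 1 RPKM or more in wildtype tissue; 2 were called lower, Ucp1 among them, and 1 higher. Fabp4, the fatty acid binding protein of fat cells, stood at 8728 ± 471 RPKM in knockout against 8384 ± 666 RPKM in wildtype (SD, n = 3 each). White adipocyte markers were called higher in 2 of 5 cases (1 of the 4 that averaged 1 RPKM or more in wildtype), and 3 of 5 had an unadjusted p under 0.05. Of 9 macrophage markers, 8 averaged 1 RPKM or more in wildtype and 1 passed the filter only through the knockout group. In all, 1 of the 9 was called higher (1 of those 8), 7 had an unadjusted p under 0.05, and the median log2 change was 0.47. In limma's test 0 of 7 endothelial and 0 of 3 red cell markers passed (0 of either at an unadjusted p under 0.05). Over all tested genes 6.95% were called higher and 0.718% lower, and 23.5% had an unadjusted p under 0.05.

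Of the 32 members, 30 passed the filter of a mean of 1 RPKM in either group, and Cox6a2 alone passed the test as deposited. Cox6a2, the heart and muscle form of a regulatory complex IV subunit, rose 13.4-fold. The other 29 tested members lay between log2 changes of -0.25 and 0.22, with standard errors of 0.07 to 0.22, and did not pass (limma, adjusted p of 0.05). Across all 11562 tested genes 7.67% were called, 6.95% higher and 0.718% lower, and 1 call among 30 members is not more than that share. The median log2 change of the members was -0.04, against 0.075 for all tested genes. After scaling each library by the median of its ratios to the mean library, called median-of-ratios scaling here, the medians were -0.15 and -0.02. Then 2 members passed, Cox6a2 as higher and Uqcrh as lower, against 5.61% of all genes (4.09% higher, 1.52% lower). Before that scaling 19 of 30 members had a log2 change below 0, against 31.5% of all tested genes, and after it 26 of 30, against 54.5%. Signs turned under that scaling for Sdha, Sdhb, Cyc1, Uqcrc1, Uqcrc2, Cox4i1 and Cox4i2, each with a log2 change of at most 0.06 as deposited and no lower than -0.10 after scaling. Cox7b2 and Cox8c, forms known from testis, are listed at 0 in every library.

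**Figure D1:**
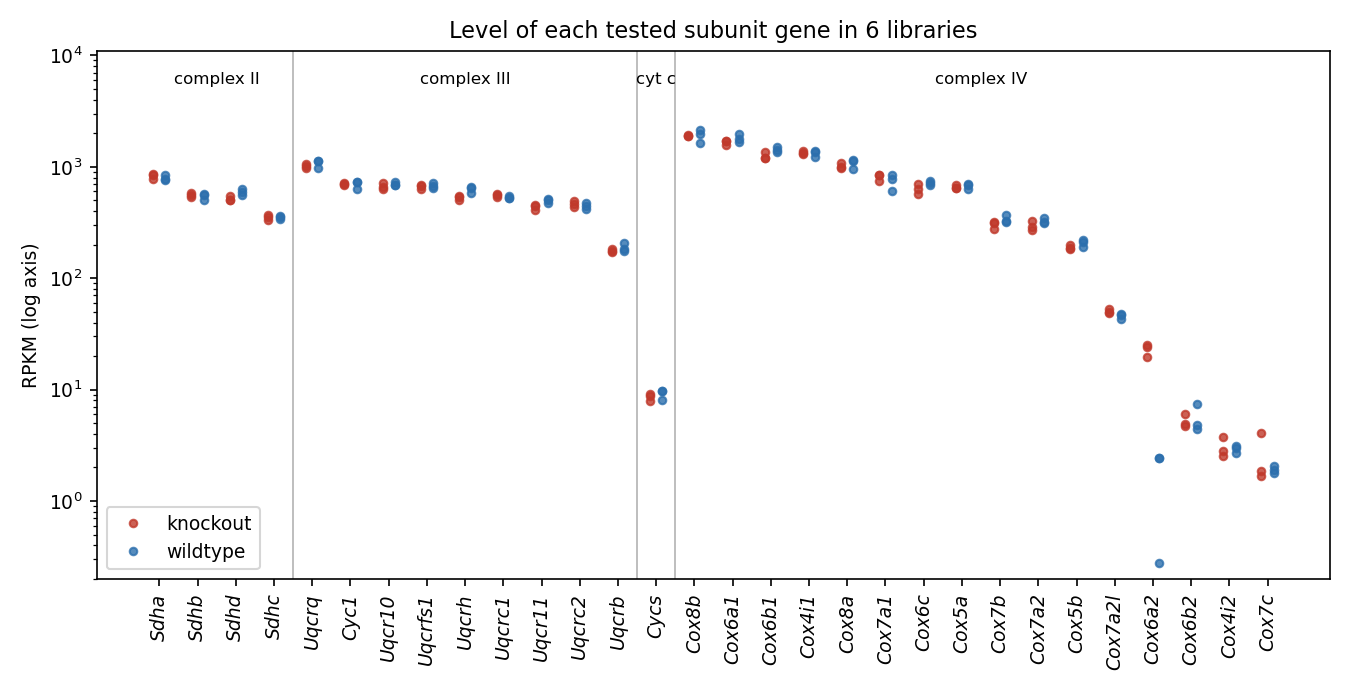
RPKM (log axis) of each of the 30 tested subunit genes in the 3 knockout (red) and 3 wildtype (blue) libraries, 1 point per library, ordered by complex and mean level. Points of the groups lie together except at Cox6a2, where the knockout libraries sit between 19.4 and 25.1 RPKM and the wildtype libraries between 0.280 and 2.43 RPKM.

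Complex II holds the succinate-oxidising flavoprotein Sdha, the iron-sulfur protein Sdhb and the membrane anchors Sdhc and Sdhd. Sdha stood at 821 ± 45.0 RPKM in knockout against 794 ± 45.2 RPKM in wildtype (SD, n = 3 each), and Sdhb at 562 ± 23.6 and 544 ± 33.3 RPKM. The anchor Sdhc stood at 351 ± 19.2 and 353 ± 10.8 RPKM. Sdhd was the member of complex II whose groups did not overlap: it read 544, 499 and 498 RPKM in knockout libraries and 590 (589.7), 556 and 631 RPKM in wildtype libraries. Every knockout library thus lay below the lowest wildtype library, but the log2 change of -0.20 (SE 0.08) did not pass (limma adjusted p = 0.187). The summed level of the 4 genes was 2248 ± 88.1 RPKM in knockout against 2284 ± 122 RPKM in wildtype, a ratio of 0.984.

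In complex III the large core proteins and the catalytic subunits were near equal in the groups, and the lowest values relative to wildtype were those of small subunits. Uqcrc1, a core protein, stood at 555 ± 19.9 RPKM in knockout against 532 ± 12.7 RPKM in wildtype, and its partner Uqcrc2 at 462 ± 30.8 and 446 ± 27.5 RPKM (SD, n = 3 each). Cyc1, the cytochrome c1 haem protein, stood at 706 ± 12.4 and 696 ± 54.2 RPKM, and the Rieske iron-sulfur protein Uqcrfs1 at 665 ± 24.8 and 680.0 ± 36.5 RPKM. Uqcrh, the acidic hinge protein that helps complex III bind cytochrome c, read 539.8, 500.1 and 548 RPKM in knockout libraries. In wildtype libraries Uqcrh read 660.2, 584 and 645 RPKM, all above the knockout libraries. The gene has 7 rows, and each had a lower mean in knockout, with log2 ratios of means from -0.288 to -0.006. Its log2 change of -0.25 (SE 0.08) did not pass as deposited (limma adjusted p = 0.118) and passed after median-of-ratios scaling (log2 change -0.36, adjusted p = 0.0416); adjusted p ranged from 0.0416 to 0.325 over 13 alternatives. Uqcr11, a small membrane subunit, read 444, 409 and 454 RPKM in knockout and 499, 475 and 510.4 RPKM in wildtype libraries, again without overlap (log2 change -0.18, SE 0.08, limma adjusted p = 0.202). The other small subunits overlapped between groups: Uqcrq stood at 1018 ± 41.6 RPKM in knockout against 1075 ± 82.0 RPKM in wildtype, Uqcr10 at 673 ± 41.3 and 701 ± 24.8 RPKM, and Uqcrb at 176 ± 5.74 and 189 ± 17.0 RPKM. The 9 genes summed to 5219 ± 58.9 RPKM in knockout against 5445 ± 262 RPKM in wildtype, a ratio of 0.959.

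Cycs, the somatic cytochrome c that shuttles electrons between complexes III and IV, is listed far below its partners, at 8.57 ± 0.672 RPKM in knockout against 9.20 ± 0.917 RPKM in wildtype (SD, n = 3 each). The table gives 11 rows for it, with means from 0 to 17.2 RPKM, and lists 1 accession more than once. Cox7c, a small subunit of complex IV, has 8 rows with means of 0 to 2.23 RPKM, and its RefSeq row read 1.67, 4.09 and 1.85 RPKM in knockout libraries and 1.91, 1.78 and 2.05 RPKM in wildtype libraries. Only knockout replicate 2 stood apart there. Both genes have processed copies in the genome that share their sequence, and the part of these copies in the low levels was not tested. The low levels are uncertain, and no reading of stoichiometry was taken from them.

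Complex IV spanned a wide range of levels, from genes listed at 0 to 2144 RPKM (Cox8b) in single libraries. Cox4i1, the form of the largest nuclear subunit found in most tissues, stood at 1334 ± 40.2 RPKM in knockout against 1326 ± 84.7 RPKM in wildtype (SD, n = 3 each), and Cox5a at 658 ± 26.9 and 672 ± 38.9 RPKM. Cox5b, the zinc-binding subunit, stood at 189 ± 9.68 and 207 ± 17.0 RPKM. Cox6b1, which faces the intermembrane space near the cytochrome c site, read 1209, 1195 and 1344 RPKM in knockout libraries and 1504, 1354 and 1416 RPKM in wildtype libraries. The Cox6b1 groups did not overlap, by a margin of knockout replicate 3 against wildtype replicate 2 that is small beside the spread within either group (log2 change -0.19, SE 0.09, limma adjusted p = 0.242). Cox6c stood at 633 ± 65.6 RPKM in knockout against 713 ± 29.6 RPKM in wildtype, and Cox7b at 303 ± 25.6 and 338 ± 26.1 RPKM. Cox7a2l, a relative of Cox7a2, read 52.8, 48.9 and 49.6 RPKM in knockout libraries. In wildtype libraries Cox7a2l read 47.9, 42.7 and 46.4 RPKM, below each knockout library (log2 change 0.14, SE 0.07, limma adjusted p = 0.291), and after median-of-ratios scaling its groups overlapped, with a log2 change of 0.03. Cox6b2, the testis form of Cox6b, read 4.88, 6.05 and 4.69 RPKM in knockout and 7.44, 4.41 and 4.80 RPKM in wildtype libraries, with overlap.

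**Figure D2:**
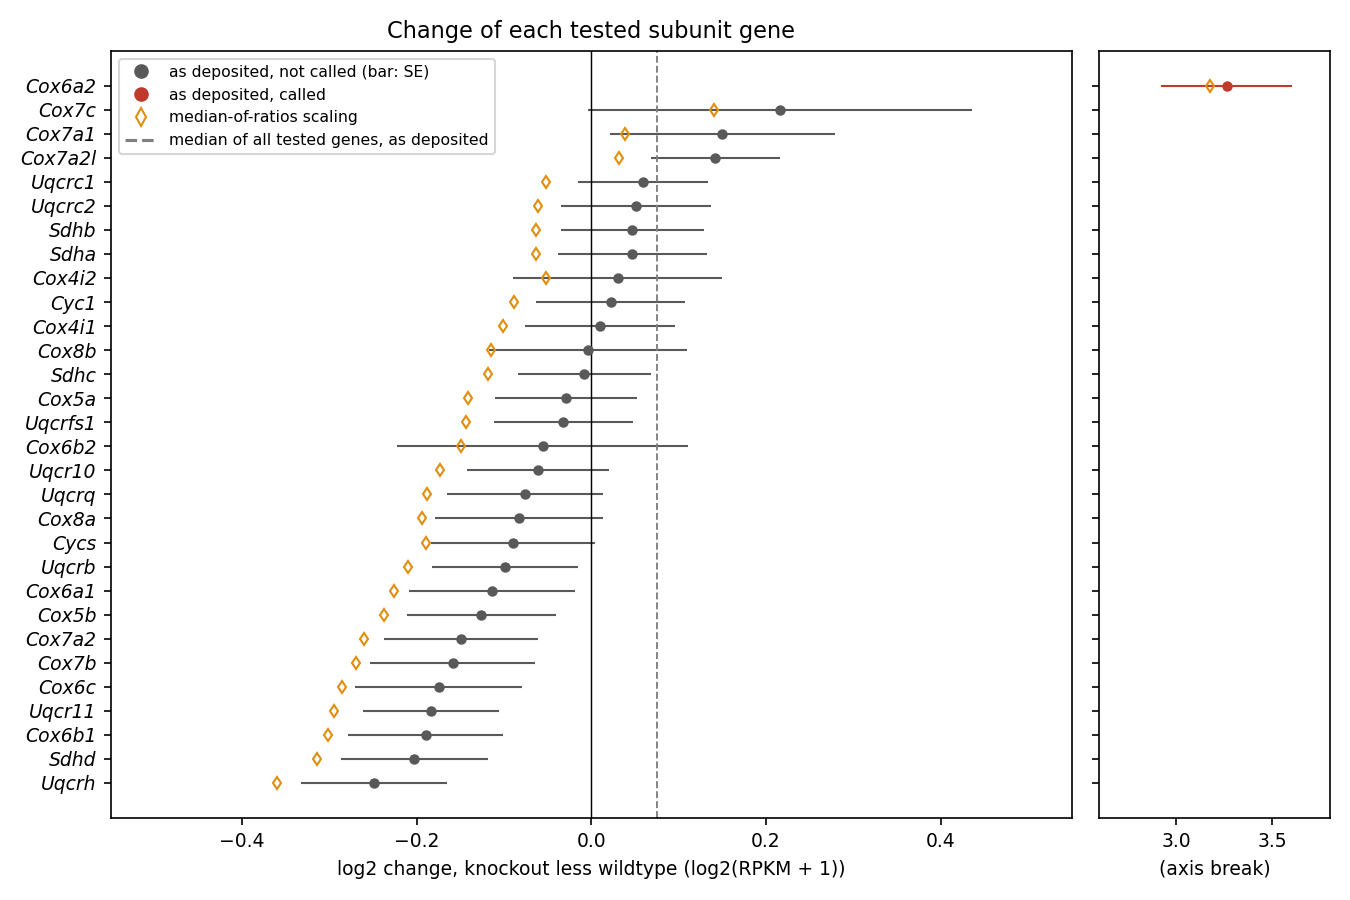
Log2 change (knockout less wildtype, log2(RPKM + 1)) of the 30 tested genes as deposited (circles, bars are moderated standard errors, red where called) and after median-of-ratios scaling (diamonds), with a break in the axis before Cox6a2. The scaled values lie to the left of the deposited ones in every row, and Cox6a2 at 3.26 lies far from the others, which end at 0.22.

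Cox6a2 was the member that passed. It read 24.0, 25.1 and 19.4 RPKM in the knockout libraries and 2.41, 2.43 and 0.280 RPKM in wildtype replicates 1, 2 and 3. The knockout libraries were all high, the wildtype libraries all low, and wildtype replicate 3 was the lowest by far. The means were 22.8 ± 2.99 RPKM in knockout against 1.71 ± 1.24 RPKM in wildtype (SD, n = 3 each), and the log2 change was 3.26 (SE 0.34, limma adjusted p = 0.00104). At a transcript length of 680 bases these values amount to about 237 to 269 reads in the knockout libraries and about 26.8, 26.7 and 3.09 reads in wildtype replicates 1, 2 and 3. The value of wildtype replicate 3 therefore rests on very few reads. Without that library the fold was 9.43 and the log2 change 2.79 (limma adjusted p = 8.16e-06), and with a pseudocount of 0.1 RPKM in place of 1 the log2 change was 4.09 (adjusted p = 0.00863). The call held in all 13 alternatives, with adjusted p from 8.16e-06 to 0.00863. The second row of the gene in the table gave a fold of 13.2. Itgad, an integrin gene that overlaps Cox6a2 on the opposite strand, read at most 0.0979 RPKM in any library.

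In each group the summed skeletal muscle markers were lowest in replicate 3, where Cox6a2 was lowest too. Not every marker kept that order within the knockout group, since the marker Pvalb was highest in replicate 3. Acta1, the actin of skeletal muscle, read 425, 424 and 342 RPKM in knockout libraries and 46.5, 57.0 and 8.54 RPKM in wildtype replicates 1, 2 and 3. Ckm, the muscle creatine kinase, read 257, 278 and 225 RPKM in knockout libraries and 30.8, 31.4 and 4.69 RPKM in wildtype libraries. Both were thus lowest in wildtype replicate 3, as Cox6a2 was, and in the knockout group both were lowest in replicate 3, where Cox6a2 was lowest too. Per 1000 RPKM of Acta1, Cox6a2 stood at 56.4, 59.2 and 56.8 RPKM in the knockout libraries and at 52.0, 42.7 and 32.8 RPKM in the wildtype libraries. Per 1000 RPKM of the summed 20 muscle markers, Cox6a2 stood at 11.6, 12.2 and 10.6 RPKM in knockout and at 9.15, 8.03 and 4.37 RPKM in wildtype libraries. Both ratios differed between groups by less than the 13.4-fold of the level, and in both every knockout library lay above every wildtype library. Wildtype replicate 3 was at least 2 times lower than both other wildtype libraries for 18 of 20 muscle markers, for 1 of 30 tested members, which was Cox6a2, and for 1.08% of all tested genes. The part of muscle RNA in the rise of Cox6a2 was not tested. Of 10 markers of slow or cardiac muscle 7 were tested and called higher, but 4 of these passed the filter only through the knockout group and 3 in wildtype too. The sum over the 10 was 124, 43.7 and 53.3 RPKM in knockout replicates 1, 2 and 3, an order unlike that of Cox6a2. In wildtype libraries that sum was 1.63 to 9.75 RPKM.

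**Figure D3:**
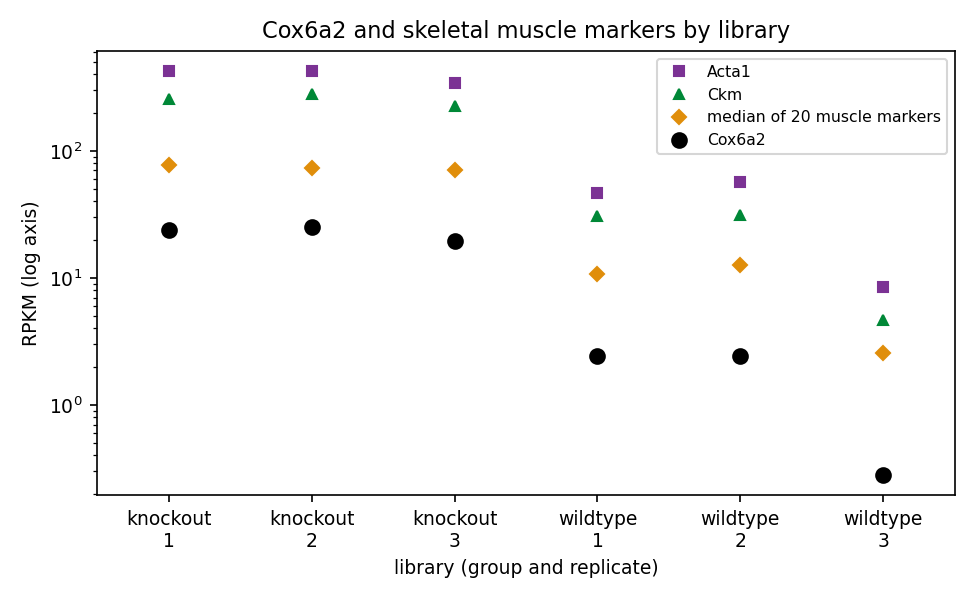
RPKM (log axis) of Cox6a2 (black circles), Acta1, Ckm and the median of 20 skeletal muscle markers in each of the 6 libraries. All 4 series are lower in the wildtype libraries and lowest in wildtype replicate 3, where Cox6a2 is at 0.280 RPKM.

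The 4 isoform pairs were compared within each library, as the difference of log2(RPKM + 1) between the 2 genes. Cox6a2 made up 1.36% ± 0.200 of the summed RPKM of Cox6a1 and Cox6a2 in knockout and 0.0950% ± 0.0697 in wildtype (SD, n = 3 each), so Cox6a1 supplied nearly all of the pair in both groups. Cox6a1 itself read 1582, 1702 and 1703 RPKM in knockout and 1966, 1656 and 1786 RPKM in wildtype libraries, with overlap. The log2 ratio of Cox6a2 to Cox6a1 was 3.38 higher in knockout (SE 0.49, exact two-sided permutation p = 0.1, the smallest that 3 against 3 libraries allow, and 0.2 after adjustment over 4 pairs). In all 3 knockout libraries the ratio lay above every wildtype library.

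Cox7a1, the muscle and brown fat form of its subunit, read 843, 751 and 849 RPKM in knockout libraries and 773, 602 and 844 RPKM in wildtype libraries. Its partner Cox7a2, the form of most tissues, read 289, 272 and 323 RPKM in knockout and 346, 311 and 322 RPKM in wildtype libraries. The groups of each gene overlapped, the mean was higher in knockout for Cox7a1 and lower for Cox7a2, and neither passed (limma adjusted p = 0.531 and 0.347). The ratio of Cox7a1 to Cox7a2 was 2.92, 2.76 and 2.63 in knockout libraries and 2.23, 1.94 and 2.62 in wildtype libraries. Knockout replicate 3 and wildtype replicate 3 were thus almost equal, and the groups only just failed to overlap. The log2 ratio was 0.30 higher in knockout (SE 0.13, exact two-sided permutation p = 0.1, adjusted 0.2); leaving out wildtype replicate 2 brought it to 0.19, and leaving out wildtype replicate 3 to 0.41.

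Cox8b, the muscle and brown fat form of subunit 8, was the most abundant member in the knockout and wildtype means alike. It read 1878, 1925 and 1902 RPKM in knockout libraries and 1982, 1630.1 and 2144 RPKM in wildtype libraries, and Cox8a read 965, 999.5 and 1076 RPKM and 1146, 965 and 1116 RPKM. Cox8b was 65.2% ± 1.19 of the pair in knockout and 64.0% ± 1.56 in wildtype (SD, n = 3 each), with overlap, and the log2 ratio differed by 0.08 (SE 0.07, exact two-sided permutation p = 0.2, adjusted 0.267). Cox4i2, the lung-enriched and oxygen-responsive form of Cox4, was 0.227% ± 0.0480 of its pair in knockout and 0.220% ± 0.00331 in wildtype, and the log2 ratio to Cox4i1 differed by 0.02 (SE 0.13, exact two-sided permutation p = 1.0). Without knockout replicate 1 that difference was -0.11. The 3 muscle-type isoforms had unlike values: the log2 change of Cox6a2 was 3.26, that of Cox7a1 0.15 (SE 0.13) and that of Cox8b -0.004 (SE 0.11). Wildtype levels of these genes were unlike, since Cox7a1 and Cox8b were at 739.8 and 1919 RPKM in wildtype tissue and Cox6a2 at 1.71 RPKM.

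**Figure D4:**
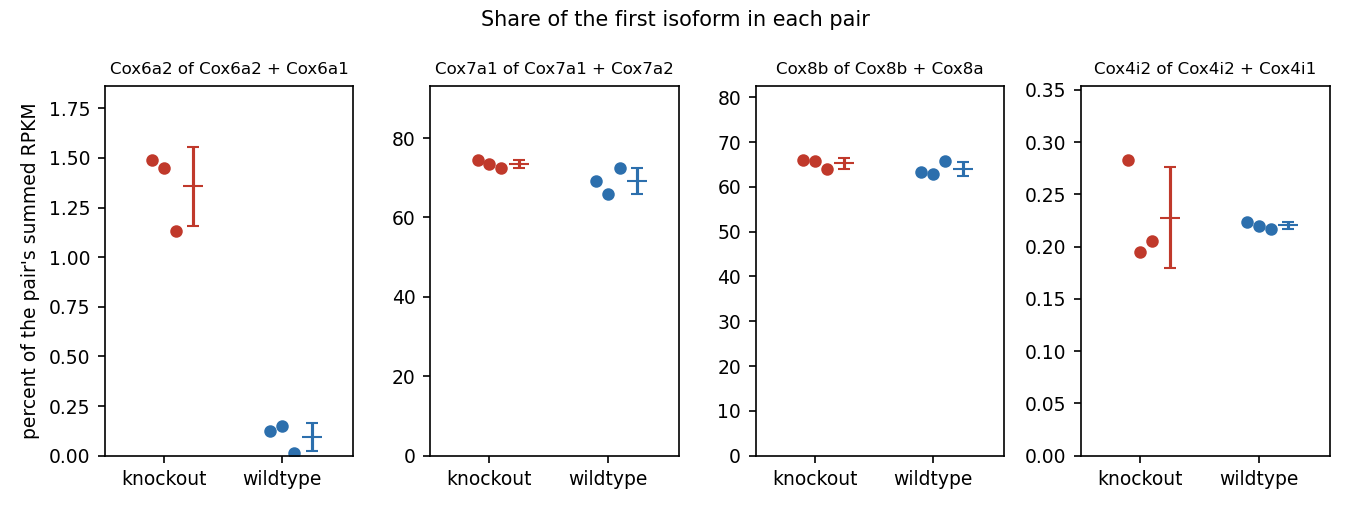
Percent of the summed RPKM of each isoform pair held by the first-named gene, 1 point per library (knockout red, wildtype blue) with the mean and SD beside the points; each panel has its own axis from 0. Knockout and wildtype libraries are far apart only for Cox6a2, at 1.13% to 1.49% against 0.0157% to 0.147%.

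The members Uqcrh, Sdhd, Uqcr11 and Cox6b1 had all knockout libraries below all wildtype libraries, and 2 had all above (Cox6a2 and Cox7a2l). Over all tested genes the groups failed to overlap in 29.3%, lower in knockout in 5.11% and higher in 24.2%. After median-of-ratios scaling 13 of 30 members lay entirely lower, against 14.8% of all genes, and 1 entirely higher, against 13.0%. Abundant genes in general lay lower after that scaling: at 100 RPKM or more the groups were apart and lower for 13 of 24 members and for 35.6% of 376 other genes, and as deposited for 4 of 24 and 11.2%. The 4 members entirely lower as deposited, none of which passed limma's test as deposited, had a feature in common upstream of their starts. After median-of-ratios scaling, members without that feature lay entirely lower too. RefSeq promoter windows (GRCm38.p6), of which the 250 bases before the start were searched on both strands, matched 22 of the 32 members. Not matched were Sdhc, Cyc1, Uqcrb, Uqcrc2, Uqcrq, Cox4i1, Cox4i2, Cox6a2, Cox6c and Cox8c. In all, 6 motifs were searched: CCGGAAG, the core bound by ETS factors such as GABP (also called NRF-2), the palindrome bound by NRF-1, AAGGTCA, bound by oestrogen-related receptors, the E-box CAGCTG, the TATA box TATAAA, and the MEF2 motif. The ETS motif was found in 5 of 22 members (22.7%), in 7.83% of all 27025 genes with a window and in 6.91% of the 32851 windows. It was found in 16.2% of the 8832 tested genes with a window and in 15.3% of the 313 of these at 100 RPKM or more. These 5 were Uqcrh, Uqcr11, Sdhd, Cox6b1 and Cox6a1, so all 4 members with entirely lower knockout values as deposited were among them. The windows are shown because they hold this motif, given in capitals on whichever strand it lies (as CCGGAAG or its reverse complement CTTCCGG). In Cox6a1 the NRF-1 palindrome, which does not overlap the ETS motif, is the first run in capitals. They lie at chr4:116075071-116075320 (Uqcrh), chr10:80406822-80407071 (Uqcr11), chr9:50603850-50604099 (Sdhd), chr7:30626115-30626364 (Cox6b1) and chr5:115348959-115349208 (Cox6a1), all on the minus strand, and are written 5′ to 3′ towards the gene.
Uqcrh: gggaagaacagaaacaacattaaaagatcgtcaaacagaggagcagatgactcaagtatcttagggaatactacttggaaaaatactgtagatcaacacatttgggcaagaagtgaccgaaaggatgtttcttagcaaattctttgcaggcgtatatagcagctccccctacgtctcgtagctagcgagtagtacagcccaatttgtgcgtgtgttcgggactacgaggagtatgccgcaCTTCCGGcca
Uqcr11: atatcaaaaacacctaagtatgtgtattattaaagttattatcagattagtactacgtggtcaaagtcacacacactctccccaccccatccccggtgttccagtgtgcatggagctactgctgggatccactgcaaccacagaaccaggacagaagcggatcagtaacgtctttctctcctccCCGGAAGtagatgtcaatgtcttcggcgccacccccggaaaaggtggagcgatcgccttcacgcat
Sdhd: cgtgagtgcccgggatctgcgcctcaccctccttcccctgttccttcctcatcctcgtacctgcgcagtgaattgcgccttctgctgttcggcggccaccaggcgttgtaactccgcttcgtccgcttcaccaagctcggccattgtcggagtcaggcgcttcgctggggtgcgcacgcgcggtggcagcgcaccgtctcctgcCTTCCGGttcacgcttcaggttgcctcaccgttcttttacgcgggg
Cox6b1: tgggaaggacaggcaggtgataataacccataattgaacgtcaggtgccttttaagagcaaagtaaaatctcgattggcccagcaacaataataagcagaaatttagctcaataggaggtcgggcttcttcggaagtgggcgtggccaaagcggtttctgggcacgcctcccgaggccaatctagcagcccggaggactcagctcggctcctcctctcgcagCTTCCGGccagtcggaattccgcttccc
Cox6a1: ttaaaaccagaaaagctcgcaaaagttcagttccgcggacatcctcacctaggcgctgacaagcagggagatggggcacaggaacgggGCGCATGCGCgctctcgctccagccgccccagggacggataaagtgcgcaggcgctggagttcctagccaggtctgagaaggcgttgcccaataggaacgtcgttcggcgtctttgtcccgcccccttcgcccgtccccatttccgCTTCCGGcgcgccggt

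The ETS motif began 10, 66, 46, 28 and 16 bases before the start in Uqcrh, Uqcr11, Sdhd, Cox6b1 and Cox6a1. The log2 change of these 5 genes ran from -0.25 to -0.11 (median -0.19), and 4 of 5 had groups apart. The 16 other tested members with a window ran from -0.16 to 0.22 (median -0.03), and 0 of 16 lay entirely lower. After median-of-ratios scaling 5 of 5 and 5 of 16 lay entirely lower, and among all tested genes with a window and at 100 RPKM or more 47.9% of those with the motif and 35.8% of those without it. As deposited, among all tested genes with a window and at 100 RPKM or more, 20.8% of the 48 with the motif and 10.6% of the 265 without it lay entirely lower, and the medians were -0.04 and -0.02. Without that limit on level the shares were 5.25% of 1429 and 4.80% of 7403 genes. The motif was looked at with the changes already known, so the counts among members cannot serve as a test of it. A match is a description of these letters, not a binding site. Of the other motifs, NRF-1's was found in Cox6a1 (0.782% of all windows), CAGCTG in Cox8b (13.0%) and TATAAA in Cox7b2 (12.4%), and those of the oestrogen-related receptors and MEF2 in 0 of 22 members (4.08% and 2.92% of all windows).

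Change and transcript length were only loosely related in the abundant members. Among the 24 members at 100 RPKM or more, the 14 with transcripts under 1000 bases had a median log2 change of -0.11 and the 10 longer ones 0.01. Single genes went against this order: Cox8b (360 bases) and Cox7a1 (393 bases) are the shortest and had log2 changes of -0.004 and 0.15, while Sdhd (1231 bases) and Cox7b (1001 bases) had -0.20 and -0.16. For the 365 other genes at that level the medians were -0.05 and -0.001. Without wildtype replicate 1 the medians of the members were -0.04 and 0.01, and without wildtype replicate 2 they were -0.17 and -0.04. The split at 1000 bases was chosen after the values were seen, and the part of fragment size or RNA quality in it was not tested.

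**Figure D5:**
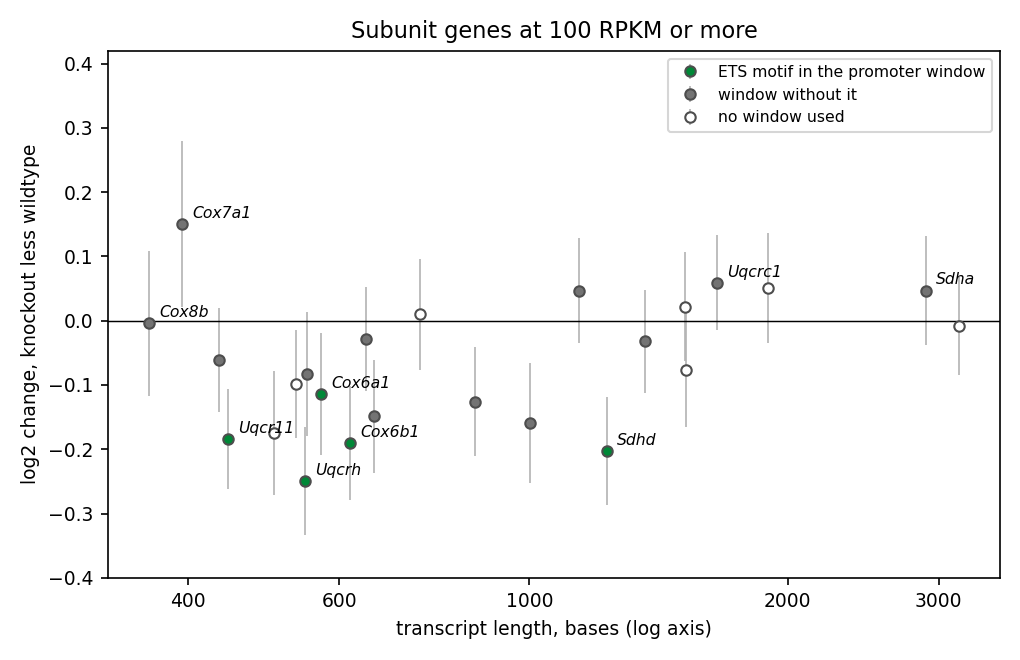
Log2 change (knockout less wildtype, bars are moderated standard errors) of the 24 subunit genes at 100 RPKM or more against transcript length in bases (log axis), coloured by whether the promoter window holds the ETS motif (green), lacks it (grey) or was not used (white). The 5 green points lie between -0.25 and -0.11, at lengths of 445 to 1231 bases.

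Libraries differed among themselves in the level of the members as a group. Of the 25 members at 10 RPKM or more in both groups, 22 were lowest in wildtype replicate 2 among the wildtype libraries. The exceptions were Uqcr10, Uqcrb and Uqcrc1. The like count over other genes was not taken, so this order is not shown to be particular to the members. In median-of-ratios scaling the factor of wildtype replicate 2 was 0.952, against 0.975 and 0.969 for wildtype replicates 1 and 3. Wildtype replicate 2 also held the least Ucp1 of the wildtype group. In the knockout group replicate 2 was lowest for 13 members, replicate 3 for 7 and replicate 1 for 5. The complex IV genes summed to 9960.4, 9905 and 10545 RPKM in knockout libraries and to 11204, 9621 and 10978 RPKM in wildtype libraries, so wildtype replicate 2 was the lowest of all 6 and the groups overlapped. Members at 100 RPKM or more in both groups had a median coefficient of variation of 5.12% in knockout and 6.26% in wildtype. For all 376 genes at that level, members included, it was 6.10% and 7.63%. These are not the 376 other genes named above, though the counts are equal. Without wildtype replicate 2 the median log2 change of the members was -0.07, and without wildtype replicate 1 it was -0.01.

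None of the genes that assemble the complexes passed as deposited. Of 37 tested assembly and copper delivery genes, 0 passed limma's test, 4 reached an unadjusted p under 0.05 (23.5% of all genes did), 18 had a log2 change below 0, and the median was 0.005. Cox18, which inserts part of the mitochondrially encoded COX2 into the membrane, stood at 9.89 ± 0.290 RPKM in knockout against 8.28 ± 0.585 RPKM in wildtype (SD, n = 3 each; limma adjusted p = 0.109). Ttc19, needed for complex III turnover, stood at 13.0 ± 0.196 and 10.9 ± 0.903 RPKM (limma adjusted p = 0.111). Slirp, which stabilises mitochondrial messages, stood at 42.04 ± 1.06 and 48.5 ± 2.72 RPKM (limma adjusted p = 0.131), and after median-of-ratios scaling it passed as lower (log2 change -0.31, adjusted p = 0.035). The groups of each of these 3 genes did not overlap. In the whole list the groups were apart and lower for 7 of 37 genes and apart and higher for 2 of 37, beside the 5.11% and 24.2% of all genes given above. Of the mitochondrially encoded partners, COX1 stood at 32580 ± 1382 RPKM in knockout against 31790 ± 2404 RPKM in wildtype. Values for COX2 (5.504 ± 0.425 and 4.44 ± 0.728 RPKM) and for COX3 (9.72 ± 0.110 and 8.97 ± 0.789 RPKM) lie far below that of COX1 and are uncertain. Nuclear copies exist, and their part in these values was not tested. None of COX1, COX2 and COX3 passed (limma adjusted p = 0.890, 0.186 and 0.461), and 1 of them reached an unadjusted p under 0.05.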

How the data were processed

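RNA of 6 libraries was sequenced after TruSeq preparation, per the labels' protocols. CASAVA and bcl2fastq, with no version, are named by the submitters' processing notes; an aligner, build and annotation were not given in the sources used here. Values for 168326 transcript rows were deposited by the authors and were taken as RPKM. No header names that unit. The values behave as reads divided by transcript length, as RPKM does. With 1 step fitted per library, 95.9% to 96.2% of low products of value and length were whole reads within a tolerance of 0.1. That check cannot tell RPKM from another unit that divides by length and by 1 factor per library. Rows without a gene identifier (13.8%) were left out. One row per gene was kept, RefSeq first, then by highest mean. Genes averaging 1 RPKM or more in either group were tested on log2(RPKM + 1) with limma 3.58.1 (R 4.3.3, intensity trend, genotype the sole factor). Tests are two-sided, with Benjamini-Hochberg adjustment over all tested genes and a threshold of 0.05. This scale understates the change of low genes; folds given without log2 are ratios of mean RPKM. The fit was tried on simulated libraries of equal depth, with a single transcript length and spread for all genes, which is simpler than these data. Isoform ratios were tested by exact permutation. Any member could be named, with the 3 assembly genes of smallest p, the mitochondrially encoded genes, Ucp1, Acta1, Ckm and up to 2 most abundant markers of each other list; Itgad was added after its values were seen. The members, pairs and lists were chosen with earlier results of these data known. Transcript lengths came from GENCODE M21 and were found for 92.6% of tested genes. Strand use is not stated, so overlapping genes cannot be separated. Members other than Cox6a2 also overlap genes, among them Sdha and Uqcrh, each with a processed pseudogene on the opposite strand.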

Additional observations from a re-analysis of the deposited data

How the results depend on the processing

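Alternatives were median-of-ratios scaling, a pseudocount of 0.1, no filter, the sum of a gene's rows, its highest row, limma without trend, a replicate block, and leaving out each library. Of 30 tested members, 29 kept their side of the threshold in all 13; the exception was Uqcrh. The number of members called was 1 throughout, leave-one-out included (1 to 1), except 2 with median-of-ratios scaling, which gave 1 assembly gene in place of 0 (0 to 0 without any 1 library). All genes called numbered 887 (804 higher, 83 lower), and 647 (472 higher, 175 lower) after that scaling. Leaving out 1 library gave 455 to 849 calls, with 455 without knockout replicate 2 and 474 without knockout replicate 1. The log2 ratio of Cox6a2 to Cox6a1 differed by 4.20 with a pseudocount of 0.1, where low values weigh more, and by 2.91 to 3.68 without 1 library. Leaving out 1 library moved the other pairs to 0.19 to 0.41 (Cox7a1), 0.04 to 0.14 (Cox8b) and -0.11 to 0.09 (Cox4i2). Under a replicate block (775 calls in all, 1 member, 0 assembly genes) no member's call changed. Same-numbered libraries deviated together by correlations of 0.092, 0.038 and -0.018, and not every library correlated best with its own number. With only 3 libraries per group, these values cannot settle whether the numbers pair the samples. Depth limits Cox6a2 in wildtype replicate 3, at about 3.09 reads.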
